A study of Mus musculus with 11 samples.

Results

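The effect of 1 µM rosiglitazone on the transcripts of mouse 3T3-L1 cells was taken from 6 of the 11 arrays of the series, those that the sample labels assign to rosiglitazone (3 arrays) or to vehicle (3 arrays). All 6 samples are total RNA from 3T3-L1 cultures harvested after 24 h, the vehicle being 0.1% DMSO. The arrays fall in 2 sets by a tag in their titles, which the labels do not explain: replicates 1 and 2 of each group belong to set 1, and replicate 4 of each group belongs to set 2. The other 5 arrays carry RNA of cells given 20 µM pioglitazone or 20 µM troglitazone and served here mainly to estimate the spread between arrays. The comparison asks which transcripts differed after 1 day of the drug. 3T3-L1 is a fibroblast line of mouse embryo origin that can be turned into adipocytes in culture. Whether these cells had been differentiated is not given in the sources used here, nor whether replicates came from separate cultures, so p-values measure the spread between these samples, which may be technical.

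Rosiglitazone is a thiazolidinedione and a ligand of PPARγ, the nuclear receptor that drives adipocyte differentiation. PPARγ pairs with a retinoid X receptor and binds direct repeats of a hexamer in the DNA, and its known targets in fat cells cover fatty acid uptake and binding, the coat of the lipid droplet, glyceroneogenesis and several secreted proteins. PPARγ ligands are also known to raise mitochondrial and peroxisomal genes in adipocytes and to lower the PPARγ transcript itself.

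The values are signals on a linear scale, which the authors had scaled to a common trimmed mean (500.289 to 500.433 per array). Signals under a floor of 73.7, a low value at which order carries no information, were raised to it, and log2 values were compared. Controls aside, the array holds 12422 probe sets; those that exceeded the floor on 2 arrays or more, 11739, were tested, and they cover 7962 genes, each represented by its brightest probe set. Among the 6 arrays, 13.7% to 17.4% of the probe sets lay at or under the floor in set 1 and 25.7% to 28.3% in set 2. The ratio of the 3' to the 5' control probe sets for beta-actin, a sign of RNA quality, was 2.09 to 2.27 in set 1 and 3.74 to 3.90 in set 2; each set holds arrays of both groups. Rosiglitazone replicate 2 was the least like the rest: its correlations with the others had a median of 0.833, against 0.874 to 0.896 for each of the remaining 10. Adipocyte markers were bright in both groups: all 13 on the array exceeded the floor on all 6 arrays, and their summed signal was 134660 to 174181 in vehicle and 130011 to 185964 in rosiglitazone, although 2 of the 13 rose and 4 fell. Fibroblast and preadipocyte markers, 13 on the array, summed to 15202 to 16162 in vehicle and 10216 to 11398 in rosiglitazone, without overlap. Of 14 macrophage markers, Itgam and Aif1 were at or under the floor on all 6 arrays, and the sum was 2624 to 4922 in vehicle and 2124 to 5282 in rosiglitazone. In RNA of whole cultures, fewer cells of a type and less RNA per cell cannot be told apart.

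Of the 11739 probe sets, 159 passed an adjusted p of 0.05 (1.35%), 92 higher (0.784%) and 67 lower (0.571%) with rosiglitazone. Under quantile normalisation it was 69 higher and 70 lower. Without a term for the set 40 were called, in a fit of the 6 arrays alone 18, and without the dependence of the spread on the signal 6. With a term for the replicate number, the fit of the 6 arrays called 0. In the main fit an unadjusted p under 0.05 was reached by 1234. The 159 include 134 that the annotation assigns to 1 gene, and through its brightest probe set 128 genes were called (1.61% of 7962): 78 rose (0.98%) and 50 fell (0.628%). "Rose" and "fell" are used below only of these calls. The rises ran from 1.39-fold to 5.63-fold with a median of 1.87, and the falls from 1.45-fold upwards with a median of 2.15. The largest fall with every signal above the floor was 5.26-fold, in Cyp1b1; 1 unnamed probe set, under the floor in all 3 treated arrays, fell by at least 6.35-fold. The called probe sets were bright. Their median vehicle signal was 2746 for the higher and 3609 for the lower ones, against 236 over all tested probe sets. The fit let the spread depend on the signal, so this brightness cannot be read as a trait of the response to the drug. In 140 of the 159, the 3 rosiglitazone and the 3 vehicle signals did not overlap, which holds for 11.8% of all tested probe sets. Of the 92 higher, 76 were of this kind (5.42% of all tested), and of the 67 lower, 64 (6.37%). The calls were chosen from these same signals, so the lack of overlap describes them and is no separate support.

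The number of calls rested most on the 6 arrays compared. Without 1 of the other 5 arrays it was 114 (troglitazone replicate 4 left out) to 158 (pioglitazone replicate 1 left out). Leaving out 1 of the 6 arrays left between 74 (without vehicle replicate 1 or 4) and 90 calls (without rosiglitazone replicate 4), and 77 remained in number without rosiglitazone replicate 2, 76 without vehicle replicate 2 and 82 without rosiglitazone replicate 1. Of the 128 genes, 41 (20 higher and 21 lower) kept the call whichever of the 11 arrays was left out, and these receive most of the space below. For the others that are described, the arrays whose removal ended the call are named or counted. Under quantile normalisation 99 of the 128 genes kept their call, among them all of the 41. Of the 41, 12 were also called in a fit of the 6 arrays alone (Abhd5, Acaa1b, Anxa2, Cdo1, Chchd10, Fasn, Gsn, Gstm1, Hadhb, Pparg, S100a6 and Srebf1), and 4 without the dependence of the spread on the signal (Acaa1b, Anxa2, Chchd10 and Gsn). Below, signals are given in the order of replicates 1, 2 and 4, and log2 fold changes of rosiglitazone over vehicle carry their standard error and the adjusted p of limma's moderated test.

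**Figure D1:**
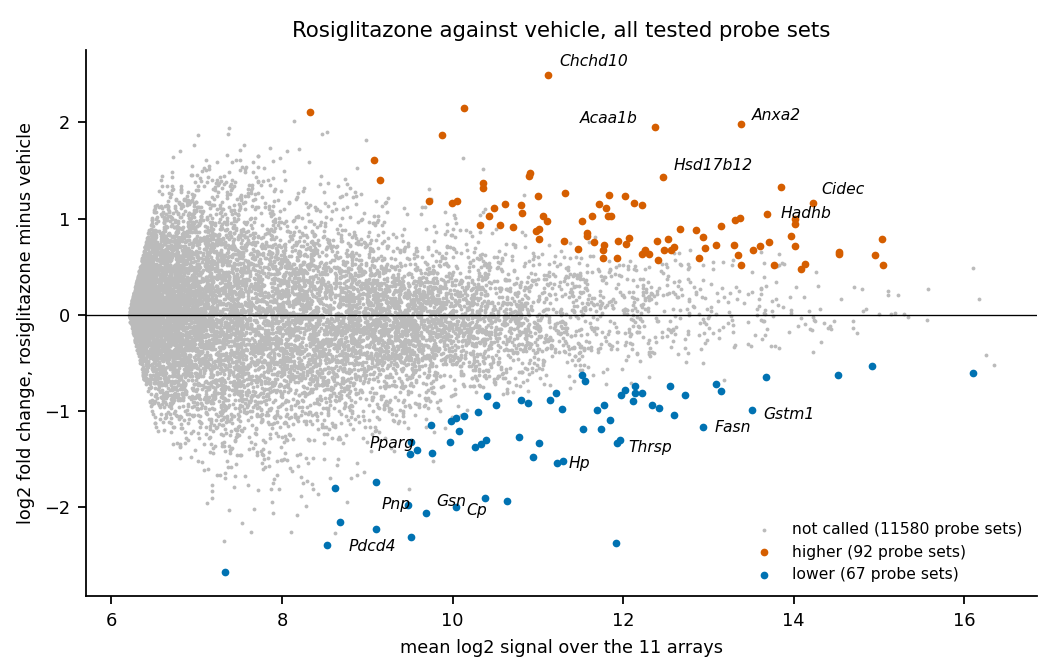
Log2 fold change of rosiglitazone over vehicle (vertical) against mean log2 signal over the 11 arrays (horizontal) for the 11739 tested probe sets; 92 called higher are orange, 67 called lower blue, and the rest grey. The calls lie mostly at high signal, where the grey cloud is narrow, and named points are representing probe sets.

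**Figure D2:**
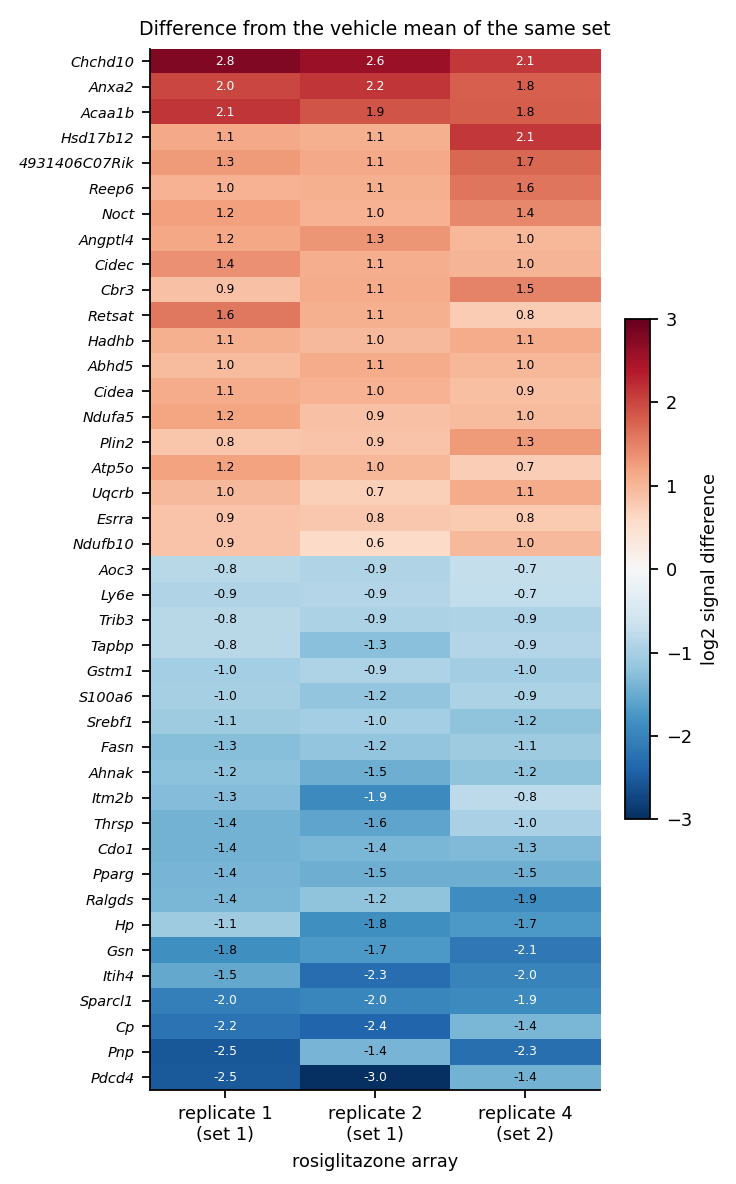
Log2 signal of each rosiglitazone array minus the vehicle mean of the same set, for the 41 genes that stayed called with any array removed (20 higher, 21 lower), ordered by fold change. Each cell has the sign of its gene's call, as was so for all 159 called probe sets on every treated array. The same arrays entered the calls.

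The gene lists below were chosen with earlier results of these data known, so their counts and medians are description only. Over all 7962 tested genes 0.98% rose and 0.628% fell. Among lipid droplet proteins and known PPARγ targets, 11 of the 22 tested genes rose and 0 fell. The median log2 fold change was 0.73 against -0.01 over all genes. Of the 22 values 17 lay above 0 and 5 below, in a range from -1.06 to 1.47. Leaving out rosiglitazone replicate 1 reduced the 11 to 6, and leaving out replicate 2 to 7. The droplet proteins Cidec, Cidea and Plin2 all rose. Cidec, which enlarges droplets by lipid transfer between them, had signals of 9478, 9483 and 13351 in vehicle and 24697, 20068 and 27001 in rosiglitazone (1.16 ± 0.13, adjusted p = 0.000234). Its relative Cidea was dimmer, at 1318, 1814 and 3484 in vehicle and 3336, 3194 and 6551 in rosiglitazone (1.02 ± 0.16, adjusted p = 0.00369). Vehicle replicate 4 was high for Cidea, so the raw groups overlapped, although each rosiglitazone array exceeded the vehicle of its own set. Plin2, the perilipin of small droplets, stood at 9675, 10196 and 6178 in vehicle and 17606, 18033 and 15083 in rosiglitazone (0.99 ± 0.14, adjusted p = 0.00138), with all 3 treated arrays above all 3 controls. Abhd5, the activator of adipose triglyceride lipase, rose without overlap from 2224, 2267 and 2489 to 4365, 4837 and 4995 (1.02 ± 0.14, adjusted p = 0.00121); it was the 1 call among 11 genes of lipolysis. The lipases themselves were not called: the log2 fold change was -0.05 for Pnpla2 and 0.16 for Lipe.

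Angptl4, a secreted inhibitor of lipoprotein lipase, had signals of 2096, 2550.2 and 2994 in vehicle and 5144, 5789.9 and 6005 in rosiglitazone (1.16 ± 0.14, adjusted p = 0.000511), without overlap. Of its dimmer probe sets 1 was also called (1.03 ± 0.13, adjusted p = 0.000636), and the others stood at 0.65 ± 0.61, adjusted p = 0.757 and -0.94 ± 0.75, adjusted p = 0.702. Retsat, which saturates retinol, stood at 1903, 2030.2 and 4859.7 in vehicle and 5889, 4148 and 8217 in rosiglitazone (1.14 ± 0.18, adjusted p = 0.00349), with vehicle replicate 4 above rosiglitazone replicate 2. Pck1, the enzyme of glyceroneogenesis in fat cells, was at 1718, 1016 and 1989 in vehicle and 3746, 4247 and 3013 in rosiglitazone (1.26 ± 0.23, adjusted p = 0.0102). The groups did not overlap, but the Pck1 call ended without rosiglitazone replicate 1 or 2 (adjusted p up to 0.108, without rosiglitazone replicate 2). Pdk4, the kinase that shuts pyruvate dehydrogenase, had 674, 926 and 831 in vehicle and 2454, 1263 and 3554 in rosiglitazone (1.47 ± 0.27, adjusted p = 0.0125), and its call ended without rosiglitazone replicate 1 or 4 or vehicle replicate 1 or 4 (adjusted p up to 0.131, without rosiglitazone replicate 4). Rosiglitazone replicate 2 was the lowest of the treated arrays for Pdk4. Gpd1, which makes glycerol 3-phosphate, rose by 0.82 with overlapping groups, and its call ended without any of 9 of the 11 arrays (adjusted p up to 0.228, without rosiglitazone replicate 1). Fabp5, a fatty acid binding protein, rose by 0.74 and its call ended without rosiglitazone replicate 2 or 4 or vehicle replicate 1 or 4 (adjusted p up to 0.125, without rosiglitazone replicate 4). Mgst3, a microsomal glutathione transferase, rose by 0.72 and its call ended without any of 9 of the 11 arrays (adjusted p up to 0.243, without vehicle replicate 4). Ephx2, soluble epoxide hydrolase, rose by 1.03 and its call ended without rosiglitazone replicate 1 or 2 or vehicle replicate 1 (adjusted p up to 0.106, without rosiglitazone replicate 1). The calls of Gpd1 and Mgst3 also ended under quantile normalisation (adjusted p = 0.0917 and 0.0786 in limma).

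The DNA element of the PPARγ and retinoid X receptor pair was searched for in the promoters of the called genes, since rosiglitazone is a ligand of PPARγ. The motif was the direct repeat DR1, which is AGGTCA, 1 free base and AGGTCA again, read on both strands with at most 2 mismatches, in RefSeq windows of GRCm38.p6 from 250 bases before to 50 after the start of the gene. Of the 64 genes that rose and have a window, 4 held it (6.25%), as did 2 of the 42 that fell (4.76%) and 245 of all 6355 tested genes with a window (3.86%). With at most 1 mismatch the counts were 0, 0 and 31. A match is only a likeness in letters. In Ghrh and Slc25a20, which rose, the match lay after the start of the gene and is not printed. The other 4 sites are shown to let the reader see how far they are from the motif, with 24 bases on each side, in the direction of the gene and with the match in capitals; the Plin2 match reads along the opposite strand.
4931406C07Rik (rose), chr9:15301644-15301704, minus strand: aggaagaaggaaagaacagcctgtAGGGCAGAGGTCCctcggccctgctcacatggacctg
Plin2 (rose), chr4:86670248-86670308, minus strand: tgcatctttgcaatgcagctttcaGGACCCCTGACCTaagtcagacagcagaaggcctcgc
Mpp1 (fell), chrX:75131180-75131240, minus strand: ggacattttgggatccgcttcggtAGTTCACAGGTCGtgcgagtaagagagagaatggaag
Itih4 (fell), chr14:30886337-30886397, plus strand: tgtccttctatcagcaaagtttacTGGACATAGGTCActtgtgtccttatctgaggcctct
The matches began 73 bases before the start of 4931406C07Rik, 225 before Plin2, 200 before Mpp1 and 115 before Itih4.

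Genes of the thiolase step, the last of peroxisomal fatty acid breakdown, rose. Acaa1b, a peroxisomal 3-ketoacyl-CoA thiolase, had signals of 1519.6, 1631 and 3087 in vehicle and 6905, 5861 and 10944 in rosiglitazone (1.95 ± 0.14, adjusted p = 1.72e-06), so that the lowest treated array was far above the highest control. A dimmer probe set of Acaa1b was called as well (1.16 ± 0.23, adjusted p = 0.0195). Scp2, which carries the thiolase activity for branched chains, stood at 1372, 1503 and 1367 in vehicle and 2683, 2566 and 2602 in rosiglitazone (0.89 ± 0.15, adjusted p = 0.00698) without overlap; its call ended without vehicle replicate 4 (adjusted p = 0.0638). Acaa1a, the close relative of Acaa1b, rose by 0.63, but the call ended without any of 10 of the 11 arrays (adjusted p up to 0.231, without vehicle replicate 2), and the array may not separate the pair. Hsd17b4, the bifunctional enzyme of the pathway, rose by 0.68 and the call ended without any of 9 of the 11 arrays (adjusted p up to 0.22, without vehicle replicate 1). Pex14, part of the import pore, rose by 0.59 and the call ended without any of 9 of the 11 arrays (adjusted p up to 0.17, without vehicle replicate 2). Under quantile normalisation the calls of Acaa1a, Hsd17b4 and Pex14 ended too (adjusted p = 0.0721, 0.0673 and 0.0602 in limma). Of the 23 peroxisomal genes tested, 5 rose and 0 fell, with a median of 0.39 and a range from -0.82 (Pxmp2) to 1.95. Without vehicle replicate 4 only 1 of the 23 was called. Of the 23 values 14 were above 0; those below include Cat, catalase, at -0.32 (adjusted p = 0.656) and the membrane protein Pex11a at -0.02.

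In mitochondrial fatty acid oxidation 4 of 18 tested genes rose and 0 fell, and 17 of the 18 log2 fold changes were above 0 (median 0.51). Hadhb, the thiolase subunit of the trifunctional protein, had signals of 8232, 8024 and 8307 in vehicle and 17001, 16074 and 17930 in rosiglitazone (1.05 ± 0.12, adjusted p = 0.000426). Both groups were tight and far apart. Acaa2, the matrix thiolase for shorter chains, stood at 9417, 8195 and 10488 in vehicle and 14284, 13698 and 20086 in rosiglitazone (0.76 ± 0.12, adjusted p = 0.00445), and its call ended without rosiglitazone replicate 4 or vehicle replicate 4 (adjusted p up to 0.0617, without vehicle replicate 4). Slc25a20, the carnitine carrier of the inner membrane, was dimmer, at 632, 764 and 514 in vehicle and 1294, 1359.6 and 1661 in rosiglitazone (1.19 ± 0.21, adjusted p = 0.0102); the call ended without rosiglitazone replicate 4 or vehicle replicate 1 or 4 (adjusted p up to 0.106, without rosiglitazone replicate 4). Acadm, the medium-chain dehydrogenase, rose by 0.59 and the call ended without any of 7 of the 11 arrays (adjusted p up to 0.186, without vehicle replicate 4). The Acadm call also ended under quantile normalisation (adjusted p = 0.0602 in limma). Genes just short of the threshold were Ech1 (0.50 ± 0.12, adjusted p = 0.0703) and Cpt2 (0.52 ± 0.13, adjusted p = 0.0781), and Cpt1a was at 0.26 (adjusted p = 0.806). Echs1 was the 1 member below 0, at -0.43 (adjusted p = 0.144). Over the 11 leave-outs the number called in this list ran from 1, without rosiglitazone replicate 4, to 4.

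Of 68 tested genes of oxidative phosphorylation, the mitochondrial chain that makes ATP, 14 rose, 0 fell, and 59 lay above 0 (median 0.40). Without rosiglitazone replicate 1 the number called was 4, and without replicate 2 it was 7. By complex, 5 of 29 genes of complex I, 0 of 4 of complex II, 5 of 8 of complex III, 1 of 13 of complex IV and 2 of 13 of the ATP synthase rose, and so did Cycs, the somatic cytochrome c. All 8 genes of complex III were above 0, with a median of 0.54. Differences between the complexes were not tested. In complex I, Ndufa5 had signals of 5693, 4798 and 10205 in vehicle and 11853, 9633 and 19841 in rosiglitazone (1.01 ± 0.13, adjusted p = 0.000901) and Ndufb10 of 5295, 4811 and 6746 in vehicle and 9185, 7565 and 13171 in rosiglitazone (0.80 ± 0.13, adjusted p = 0.00349). In complex III, Uqcrb stood at 4943, 5538 and 9223 in vehicle and 10204, 8551 and 19873 in rosiglitazone (0.93 ± 0.13, adjusted p = 0.00158). For Ndufa5 and Uqcrb vehicle replicate 4 exceeded rosiglitazone replicate 2, while every treated array lay above the vehicle of its own set. Atp5o, a stalk subunit of the ATP synthase, was at 5654, 4935 and 10503 in vehicle and 12166, 10579 and 17569 in rosiglitazone (0.98 ± 0.13, adjusted p = 0.000757), with the lowest treated array just above the highest control.

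The other calls of the respiratory chain were smaller or less stable. Uqcrh rose by 0.72 and its call ended without rosiglitazone replicate 1 or vehicle replicate 2 (adjusted p up to 0.0557, without vehicle replicate 2). Ndufb6 rose by 0.90 and its call ended without rosiglitazone replicate 1 or 2 or vehicle replicate 1 or 2 (adjusted p up to 0.157, without rosiglitazone replicate 2). Cox6a2, the muscle form of a subunit of complex IV, rose from 703, 812 and 762 to 1494, 1272 and 1939.9 (1.03 ± 0.20, adjusted p = 0.0151), and the call ended without rosiglitazone replicate 1 or 4 or vehicle replicate 1 or 4 (adjusted p up to 0.131, without rosiglitazone replicate 4). Cycs had the largest change of the list, with signals of 902, 1091 and 1080.2 in vehicle and 2413, 2695 and 3295 in rosiglitazone (1.44 ± 0.32, adjusted p = 0.0345), yet its call ended without any of 9 of the 11 arrays (adjusted p up to 0.195, without vehicle replicate 4). Cyc1, Ndufb5, Ndufb7, Uqcrq, Uqcr11 and Atp5l rose by 0.51 to 0.70, and the call of each ended without any of 7 to 11 of the 11 arrays (adjusted p up to 0.278, for Ndufb7 without vehicle replicate 4). These calls and that of Ndufb6 also ended under quantile normalisation (adjusted p in limma from 0.0577 for Cyc1 to 0.217 for Uqcr11). Esrra, the orphan receptor ERRα that is known to drive such genes, had signals of 1930.3, 2119.8 and 1932 in vehicle and 3652, 3533 and 3331 in rosiglitazone (0.81 ± 0.13, adjusted p = 0.00467), without overlap; a second, dimmer probe set stood at 0.14 ± 0.26, adjusted p = 0.892. Ppargc1a, its coactivator, was dim, at 87.8, 137 and 83.1 in vehicle and 339, 64.0 and 95.6 in rosiglitazone (0.42 ± 0.61, adjusted p = 0.86).

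The largest rise of any named gene was that of Chchd10, which encodes a small protein of the mitochondrial intermembrane space. Its signals were 560.1, 364 and 868 in vehicle and 3082, 2728 and 3756 in rosiglitazone (2.49 ± 0.19, adjusted p = 4.22e-06), with no overlap. Chchd10 was listed with mitochondrial import, carriers and ribosomes, where 3 of 58 genes rose, 0 fell and the median was 0.28. The other calls there were Slc25a20, given above, and Mrpl12 of the mitochondrial ribosome (0.76 ± 0.17, adjusted p = 0.0414), whose call ended without any of 10 of the 11 arrays (adjusted p up to 0.233, without vehicle replicate 1). The Mrpl12 call also ended under quantile normalisation (adjusted p = 0.0693 in limma). Among thermogenic genes 2 of 12 rose, Cidea and Slc25a20, and Ucp1 was near the floor, with signals of 189, 39.9 and 27.7 in vehicle and 205, 265 and 7.0 in rosiglitazone (adjusted p = 0.722).

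Of 18 glycolytic genes 4 rose, 0 fell and 15 lay above 0 (median 0.52), but without rosiglitazone replicate 4 none of the 18 was called and without replicate 2 only 1. Tpi1, triose phosphate isomerase, stood at 11775, 12634 and 9671 in vehicle and 17526, 20873 and 17347 in rosiglitazone (0.71 ± 0.12, adjusted p = 0.00578), without overlap; its call ended without rosiglitazone replicate 2 or 4 or vehicle replicate 4 (adjusted p up to 0.0746, without vehicle replicate 4). Ldha, which reduces pyruvate to lactate, was at 16241, 17954 and 17302 in vehicle and 28172, 23121 and 30031 in rosiglitazone (0.65 ± 0.13, adjusted p = 0.0203), and the call ended without rosiglitazone replicate 1 or 4 or vehicle replicate 1, 2 or 4 (adjusted p up to 0.155, without vehicle replicate 4). Hk2, the insulin-responsive hexokinase, rose by 0.80 and its call ended without rosiglitazone replicate 1, 2 or 4 or vehicle replicate 2 or 4 (adjusted p up to 0.143, without vehicle replicate 2). Pgam1, a phosphoglycerate mutase, rose by 0.73 and its call ended without any of 6 of the 11 arrays (adjusted p up to 0.187, without vehicle replicate 4). Under quantile normalisation Tpi1 kept its call (adjusted p = 0.0194 in limma). Ldha, Hk2 and Pgam1 lost theirs (adjusted p = 0.0992, 0.0504 and 0.0616), at log2 fold changes of 0.47, 0.75 and 0.63. Slc2a1, the basal glucose transporter, had signals of 549, 452 and 234 in vehicle and 820, 1013 and 1063 in rosiglitazone. It did not pass (1.31 ± 0.32, adjusted p = 0.0623), and Pkm was at 0.52 ± 0.12, adjusted p = 0.0563. Slc2a1 passed under quantile normalisation (1.34, adjusted p = 0.0484 in limma). Over the leave-outs of the main fit its adjusted p ran from 0.0595 to 0.311. In the citric acid cycle and pyruvate entry 4 of 29 rose and 0 fell, with a median of 0.30, and without rosiglitazone replicate 1 none was called and without replicate 2 only 2. Besides Pdk4 these were Ogdh, Mdh2 and Fh1. Ogdh, of the oxoglutarate dehydrogenase complex, rose by 0.77, and its call ended without rosiglitazone replicate 1 or vehicle replicate 1 or 2 (adjusted p up to 0.0939, without vehicle replicate 1). Mdh2, malate dehydrogenase, rose by 0.47, and Fh1, fumarase, by 0.59. The calls of Mdh2 and Fh1 each ended without any of 9 of the 11 arrays, with adjusted p up to 0.203 and 0.219. Both calls also ended under quantile normalisation (adjusted p = 0.136 and 0.0916 in limma).

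The transcript of the drug's own receptor fell. Pparg had signals of 1931, 1729 and 2886 in vehicle and 698, 665 and 1054 in rosiglitazone (-1.43 ± 0.21, adjusted p = 0.00204), and the highest treated array was below the lowest control. Srebf1, the transcription factor of the lipogenic programme, fell from 5970.4, 5896 and 6933 to 2842, 2922 and 3023 (-1.09 ± 0.15, adjusted p = 0.00125), with little spread on either side. These were the only 2 calls among 37 receptors and adipogenic transcription factors, whose median was -0.05. Cebpa was nearly level, at 9214, 7794 and 9799 in vehicle and 8641, 9248 and 9579 in rosiglitazone (0.04 ± 0.13, adjusted p = 0.947; 95% interval -0.24 to 0.32). Rxra, a partner of PPARγ, was variable, with 345, 837 and 935 in vehicle and 1118, 1735 and 1138 in rosiglitazone (1.01 ± 0.33, adjusted p = 0.221).

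Among the genes of fat synthesis that fell were its central enzyme and a regulator. Fasn, fatty acid synthase, had signals of 13607, 15582 and 18128 in vehicle and 6024, 6443 and 8719 in rosiglitazone (-1.17 ± 0.14, adjusted p = 0.000525). Thrsp, a regulator of lipogenesis also called Spot 14, stood at 6959, 9229 and 9796 in vehicle and 2984, 2671 and 4967 in rosiglitazone (-1.33 ± 0.17, adjusted p = 0.000621). Neither gene's groups overlapped. Hsd17b12, the reductase that lengthens fatty acids, moved the other way, with 3158, 4045 and 2179 in vehicle and 7831, 7444 and 9466 in rosiglitazone (1.44 ± 0.21, adjusted p = 0.00183). Its rise was 1.10 in set 1 and 2.12 in set 2, a difference with an unadjusted p of 0.024 that did not pass adjustment. Of the 21 genes tested for fat synthesis 3 fell (Fasn, Thrsp and Srebf1), 2 rose (Hsd17b12 and Gpd1), and the median was -0.19. Scd1, the stearoyl-CoA desaturase, was among the brightest of all, with 99795, 136379 and 105023 in vehicle and 110578, 63755 and 67969.8 in rosiglitazone, and was not called (-0.53 ± 0.18, adjusted p = 0.267); 1 treated array lay within the control range. Elovl5 (-0.79 ± 0.21, adjusted p = 0.0922) and Acly (-0.41 ± 0.17, adjusted p = 0.395) did not pass. In cholesterol synthesis and uptake 1 of 22 genes rose and 1 fell. Lss, which closes the sterol rings, rose by 0.98, and its call ended without rosiglitazone replicate 1, 2 or 4 or vehicle replicate 1 or 4 (adjusted p up to 0.117, without vehicle replicate 4). Npc2, the lysosomal sterol carrier, fell by 0.78, and its call ended without rosiglitazone replicate 1 or 2 or vehicle replicate 1, 2 or 4 (adjusted p up to 0.123, without vehicle replicate 4).

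**Figure D3:**
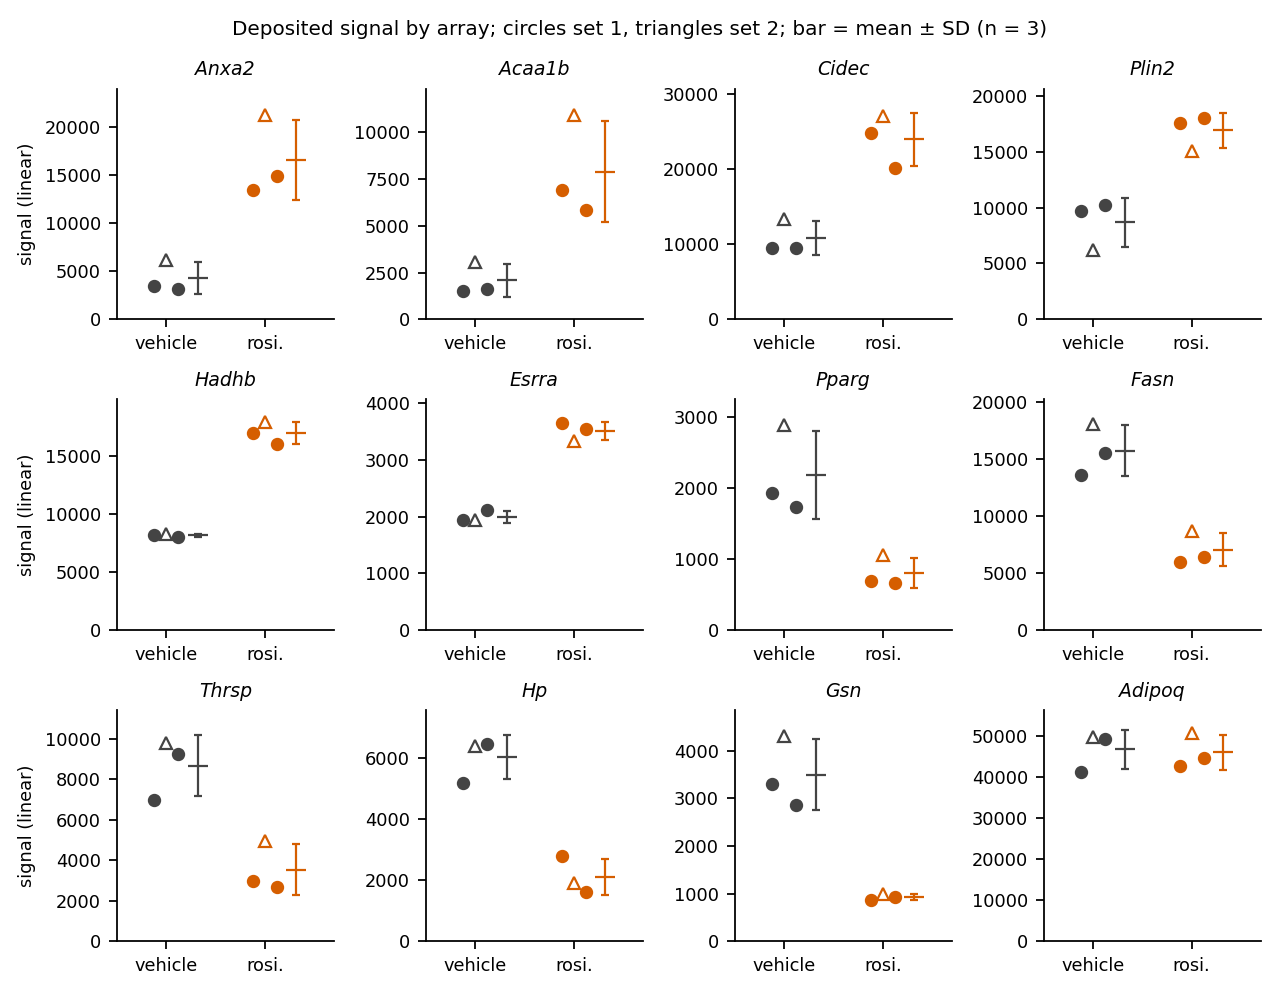
Deposited signal on a linear scale for 12 genes by array, vehicle in grey and rosiglitazone ("rosi.") in orange; filled circles are set 1, open triangles set 2, and the bar beside each group is the mean ± SD of its 3 arrays. Anxa2, Acaa1b, Cidec, Plin2, Hadhb and Esrra were higher and Pparg, Fasn, Thrsp, Hp and Gsn lower without overlap, and Adipoq was at 46880 ± 4760 in vehicle and 46093 ± 4233 in rosiglitazone.

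Proteins that fat cells secrete had the lowest median of the 35 lists. Of 24 tested, 8 fell, 1 rose (Angptl4), and the median was -0.59. Without rosiglitazone replicate 1 the number called was 5, and without replicate 2 it was 5 lower and 1 higher. Of the 8, Hp, Cp, Itih4 and Orm1 are known as plasma proteins of the acute phase, and Sparcl1 and Sparc, given with the matrix genes, are among the 8 too. Hp, haptoglobin, had signals of 5182, 6462 and 6385 in vehicle and 2775, 1622 and 1919 in rosiglitazone (-1.54 ± 0.21, adjusted p = 0.000901). Cp, ceruloplasmin, stood at 3086, 2569.6 and 2869 in vehicle and 609.5, 538 and 1100.3 in rosiglitazone (-1.99 ± 0.27, adjusted p = 0.000965). Itih4, a heavy chain of the inter-alpha-trypsin inhibitor family, was at 2729, 3102 and 5018 in vehicle and 1003, 600.2 and 1249.6 in rosiglitazone (-1.94 ± 0.22, adjusted p = 0.000333). In all 3 the treated arrays lay below every control. Orm1, orosomucoid, fell by 1.44 on the log2 scale and its call ended without rosiglitazone replicate 1 or 2 or vehicle replicate 1 or 2 (adjusted p up to 0.124, without vehicle replicate 2); it has near copies (Orm2, Orm3) that a probe set may share. Agt, angiotensinogen, fell by 0.74 and its call ended without rosiglitazone replicate 1 or 4 or vehicle replicate 4 (adjusted p up to 0.111, without vehicle replicate 4). Retn, the adipokine resistin, had 6670, 7908 and 7587 in vehicle and 3540.4, 3466 and 5744 in rosiglitazone (-0.84 ± 0.19, adjusted p = 0.0394), and its call ended without any of 8 of the 11 arrays (adjusted p up to 0.24, without vehicle replicate 2). The bright adipokine Adipoq stood at 41392, 49355 and 49893 in vehicle and 42689.7, 44756 and 50833 in rosiglitazone (-0.02 ± 0.13, adjusted p = 0.973; 95% interval -0.30 to 0.26). Lep, the adipokine leptin, was variable, at 271, 503 and 859 in vehicle and 335, 477 and 545 in rosiglitazone (-0.14 ± 0.41, adjusted p = 0.94).

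A few matrix genes fell. Of 43 tested genes of the extracellular matrix 4 fell, 0 rose and the median was -0.39, and without rosiglitazone replicate 2 only 1 was called. Sparcl1, a relative of the matrix protein SPARC, had signals of 2394, 1326 and 1921 in vehicle and 431, 460.1 and 508 in rosiglitazone (-1.97 ± 0.30, adjusted p = 0.00266). The falls of Bgn, the proteoglycan biglycan (-0.93), Fn1, fibronectin (-0.94), and Sparc (-0.89) each ended without any of 5 arrays, with adjusted p up to 0.122, 0.140 and 0.143. Fibroblast and preadipocyte markers were low beside them: 11 of 13 were below 0, the median was -0.65, 8 had an unadjusted p under 0.05 in the lower direction, and Fn1 was the 1 that passed adjustment. Dlk1, the classical preadipocyte marker, was at 1877, 1623 and 1840 in vehicle and 1119, 1233 and 1206 in rosiglitazone (-0.58 ± 0.20, adjusted p = 0.254); its groups did not overlap. Thy1 stood at 609, 636 and 497 in vehicle and 181, 238 and 298 in rosiglitazone (-1.30 ± 0.41, adjusted p = 0.197). Col1a2, a chain of type I collagen, was at 0.20 ± 0.19, adjusted p = 0.757. The part of the fibroblast markers in the fall of the matrix genes was not tested. Cst3, the protease inhibitor cystatin C, fell by 0.79 and its call ended without rosiglitazone replicate 2 or vehicle replicate 2 or 4 (adjusted p up to 0.0746, without vehicle replicate 4). Of 46 genes of Wnt, TGF beta and BMP signalling 0 were called by limma (4 had an unadjusted p under 0.05, each lower), and of 11 insulin-like growth factors and binding proteins 0 (4, each lower), with Igf1 at -0.81 (adjusted p = 0.156). Over all 11739 tested probe sets 628 had an unadjusted p under 0.05 in the lower direction.

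Proteins that bind membranes or actin moved in both directions. Anxa2, an annexin that binds phospholipid in the presence of calcium, had signals of 3518, 3202 and 6151 in vehicle and 13440.3, 14919.9 and 21268 in rosiglitazone (1.98 ± 0.13, adjusted p = 1.16e-06), the smallest p of the comparison. S100a6, a small calcium-binding protein, fell from 9309, 9253 and 15703 to 4684, 4095 and 8163 (-1.04 ± 0.13, adjusted p = 0.000528). Ahnak, a giant scaffold protein known as a partner of Anxa2, stood at 7264, 5217 and 9198 in vehicle and 2622, 2244 and 3972 in rosiglitazone (-1.30 ± 0.15, adjusted p = 0.000426). Gsn, the actin-severing protein gelsolin, had the smallest p of the named genes that fell, at 3297, 2867 and 4319 in vehicle and 861, 929 and 983 in rosiglitazone (-1.90 ± 0.19, adjusted p = 7.66e-05), with treated arrays far below the controls. Anxa5 rose by 0.68 and its call ended without any of 7 of the 11 arrays (adjusted p up to 0.168, without vehicle replicate 2). Anxa8 fell by 0.93 and its call ended without rosiglitazone replicate 1 or 2 or vehicle replicate 1 or 2 (adjusted p up to 0.117, without rosiglitazone replicate 2). Over the 48 annexin and actin genes 2 rose, 3 fell (Gsn, S100a6 and Anxa8), and the median was -0.05.

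Genes of defence against oxidants and foreign compounds also split. Gstm1, a glutathione transferase, had signals of 16481, 16598 and 20159 in vehicle and 8225, 8686 and 9780.1 in rosiglitazone (-0.99 ± 0.14, adjusted p = 0.00104); its probe set belongs to a family of near copies, so other Gstm genes may contribute, and a dimmer probe set stood at 0.27 ± 0.47, adjusted p = 0.883. Cbr3, a carbonyl reductase, rose from 1669.6, 1521 and 2077 to 2933, 3427 and 5805 (1.16 ± 0.15, adjusted p = 0.000791). Aoc3, the amine oxidase of the adipocyte surface, stood at 7230, 6622 and 7871 in vehicle and 3889.7, 3702 and 4822 in rosiglitazone (-0.81 ± 0.12, adjusted p = 0.00266). Cyp1b1, a cytochrome P450, showed the largest fall of any named gene, with 1245, 1296 and 818 in vehicle and 379, 121 and 199 in rosiglitazone (-2.39 ± 0.47, adjusted p = 0.0182), but its call ended without rosiglitazone replicate 2 or 4 or vehicle replicate 1, 2 or 4 (adjusted p up to 0.142, without vehicle replicate 2). Cyp2f2 fell by 1.20 and its call ended without rosiglitazone replicate 2 or 4 or vehicle replicate 2 or 4 (adjusted p up to 0.13, without vehicle replicate 4). Fth1, the ferritin heavy chain, fell by 0.62 and its call ended without rosiglitazone replicate 1 or 2 or vehicle replicate 1, 2 or 4 (adjusted p up to 0.141, without vehicle replicate 2); a dimmer probe set of it had the opposite sign (0.22 ± 0.17, adjusted p = 0.698). Of 22 genes of xenobiotic metabolism 1 rose (Ephx2) and 3 fell (Aoc3, Cyp1b1 and Cyp2f2; median -0.22), but without rosiglitazone replicate 2 it was 0 and 1. Of 45 antioxidant genes and NRF2 targets 1 rose (Mgst3) and 2 fell (Gstm1 and Fth1; median -0.09), and of 38 dehydrogenases 4 rose and 0 fell (median 0.21), namely Cbr3, Hsd17b12, Retsat and Hsd17b4.

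Several other lists held 1 or 2 calls. Trib3, a pseudokinase known to bind Akt and to be induced in stress, had signals of 5206, 3702 and 6268 in vehicle and 2458, 2285 and 3306 in rosiglitazone (-0.90 ± 0.14, adjusted p = 0.0034); it was the 1 call among 35 genes of endoplasmic reticulum stress and the 1 among 27 of insulin signalling. Tapbp, tapasin of the class I antigen loading complex, stood at 4918, 4906 and 4657 in vehicle and 2759, 2062 and 2537 in rosiglitazone (-0.99 ± 0.15, adjusted p = 0.00266), and a second probe set was called too (-1.11 ± 0.25, adjusted p = 0.0387), while the remaining one was not called (-0.03 ± 0.29, adjusted p = 0.99). Ifitm3, interferon-inducible, fell by 1.34 and its call ended without vehicle replicate 1 or 4 (adjusted p up to 0.064, without vehicle replicate 4); the 34 interferon and MHC genes held these 2 falls, 0 rises and a median of -0.36. Ly6e, a surface protein anchored by lipid and in none of the lists, was at 9573, 9807 and 10934 in vehicle and 5212, 5287 and 6573 in rosiglitazone (-0.83 ± 0.14, adjusted p = 0.00561). Pnp, purine nucleoside phosphorylase, had 1999, 1689 and 2806 in vehicle and 315, 698 and 589 in rosiglitazone (-2.06 ± 0.30, adjusted p = 0.00159). Impdh1, an enzyme of guanine nucleotide synthesis, fell by 1.05 and its call ended without any of 8 of the 11 arrays (adjusted p up to 0.218, without vehicle replicate 2); the 25 genes of nucleotide metabolism held these 2 falls, 0 rises and a median of -0.20. Pdcd4, which blocks the helicase eIF4A in translation, stood at 2149, 1824 and 1920.2 in vehicle and 348, 244 and 724 in rosiglitazone (-2.31 ± 0.31, adjusted p = 0.000901). Its log2 difference was -2.76 in set 1 and -1.41 in set 2, with an unadjusted p of 0.0428 for the gap between the sets. Pdcd4 was the 1 call among 54 cell cycle genes.

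Further genes that kept their call under each leave-out belonged to none of these lists. Reep6, of a family that shapes the endoplasmic reticulum, had signals of 2535, 2445 and 2181 in vehicle and 5113, 5233 and 6629 in rosiglitazone (1.24 ± 0.14, adjusted p = 0.000355). Noct, the clock-regulated gene of nocturnin, was at 1315, 1197 and 1107 in vehicle and 2921, 2568 and 3017 in rosiglitazone (1.23 ± 0.18, adjusted p = 0.00207), although 1 of its dimmer probe sets stood at -0.81 ± 0.34, adjusted p = 0.386. The gene 4931406C07Rik stood at 699, 700.2 and 843 in vehicle and 1698, 1526 and 2759.5 in rosiglitazone (1.37 ± 0.20, adjusted p = 0.00204), and its dimmer probe sets stood at 1.82 ± 0.49, adjusted p = 0.0996 and 1.58 ± 0.62, adjusted p = 0.338. All 3 genes were without overlap. Cdo1, cysteine dioxygenase, fell from 2548, 2777 and 2278 to 998, 1024 and 909 (-1.37 ± 0.19, adjusted p = 0.00104). Ralgds, an exchange factor for Ral GTPases, was at 4111, 3862 and 4823 in vehicle and 1545, 1732 and 1315 in rosiglitazone (-1.48 ± 0.18, adjusted p = 0.000528). Itm2b, an integral membrane protein, had 3505, 3595 and 3728 in vehicle and 1444, 949 and 2162 in rosiglitazone (-1.33 ± 0.22, adjusted p = 0.00462). None of these 3 falls showed overlap either.

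Several large changes were less stable than these. Sox15 had signals of 334, 116 and 68.4 in vehicle and 748, 749.9 and 413 in rosiglitazone (2.11 ± 0.46, adjusted p = 0.0345), 1 control being under the floor, and the call ended without any of 10 of the 11 arrays (adjusted p up to 0.186, without rosiglitazone replicate 4). Pmm1, phosphomannomutase, was at 149, 203 and 749.5 in vehicle and 835, 1040.1 and 1261 in rosiglitazone (1.86 ± 0.33, adjusted p = 0.00848); its rise was 2.42 in set 1 and 0.75 in set 2, and the call ended without rosiglitazone replicate 1 or 2 or vehicle replicate 1 or 2 (adjusted p up to 0.0916, without rosiglitazone replicate 2). Sapcd1 stood at 358, 330.3 and 164 in vehicle and 867, 1255 and 502 in rosiglitazone (1.61 ± 0.28, adjusted p = 0.00868), and the call ended without rosiglitazone replicate 2 or 4 (adjusted p up to 0.0587, without rosiglitazone replicate 4). The groups of Sox15, Pmm1 and Sapcd1 did not overlap. Sac3d1 rose by 1.40 and the call ended without any of 10 of the 11 arrays (adjusted p up to 0.191, without vehicle replicate 4); another probe set, brighter in vehicle (mean signal 564 against 375), stood at 0.03 ± 0.44, adjusted p = 0.993. Nectin2, an adhesion molecule, rose by 1.32 and the call ended without rosiglitazone replicate 1, 2 or 4 or vehicle replicate 2 or 4 (adjusted p up to 0.135, without rosiglitazone replicate 2), though a second probe set was called as well (0.93 ± 0.19, adjusted p = 0.0203). Snrk, a kinase related to AMPK, rose by 1.18 and the call ended without any of 9 of the 11 arrays (adjusted p up to 0.186, without vehicle replicate 4). Prelid3b rose by 1.15 and the call ended without rosiglitazone replicate 4 or vehicle replicate 4 (adjusted p up to 0.0966, without rosiglitazone replicate 4). Among falls, Dock9 was at 872, 833 and 1000.4 in vehicle and 227, 96.6 and 375 in rosiglitazone (-2.15 ± 0.46, adjusted p = 0.0273), and the call ended without any of 7 of the 11 arrays (adjusted p up to 0.156, without vehicle replicate 4). Every treated signal of Dock9 lay below every control. Rnf19b fell by 1.80 and the call ended without any of 11 of the 11 arrays (adjusted p up to 0.222, without vehicle replicate 1). Pmp22, a peripheral myelin protein, fell by 1.40 and the call ended without rosiglitazone replicate 1 or 4 or vehicle replicate 1 or 4 (adjusted p up to 0.093, without vehicle replicate 4). Nudt4 fell by 1.32 and the call ended without rosiglitazone replicate 1 or 2 or vehicle replicate 1, 2 or 4 (adjusted p up to 0.159, without vehicle replicate 1). Atf6b fell by 1.32 and the call ended without rosiglitazone replicate 2 or 4 or vehicle replicate 1, 2 or 4 (adjusted p up to 0.111, without vehicle replicate 4); another probe set of Atf6b stood at 0.89 ± 0.40, adjusted p = 0.45.

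Some well-known adipocyte genes were not called, and their intervals show how large a change these arrays could have missed. Fabp4, the adipocyte fatty acid binding protein, had 2209.5, 2819 and 2037 in vehicle and 3893, 3505 and 3148 in rosiglitazone (0.59 ± 0.15, adjusted p = 0.0803), without overlap and with a 95% interval of 0.27 to 0.91. Lpl stood at 20455, 22415 and 26721 in vehicle and 16860.4, 12377 and 26221 in rosiglitazone (-0.39 ± 0.18, adjusted p = 0.482; 95% interval -0.78 to 0.0043), and rosiglitazone replicate 2 was the lowest of the 6. Cd36, a fatty acid transporter, stood at 482, 621 and 389.5 in vehicle and 688, 640.4 and 459.5 in rosiglitazone (0.27 ± 0.33, adjusted p = 0.817, interval -0.43 to 0.96). Slc2a4, the insulin-responsive glucose transporter, was at 2175, 2086 and 2355 in vehicle and 2664, 1738 and 2558 in rosiglitazone (0.05 ± 0.19, adjusted p = 0.955; interval -0.35 to 0.44). Insr, the insulin receptor, was under the floor on 5 of the 6 arrays, so its change cannot be read. Irs1, which relays the signal of that receptor, was dim, at 203, 167 and 83.6 in vehicle and 41.3, 55.8 and 79.5 in rosiglitazone (-0.90 ± 0.43, adjusted p = 0.487). The median distance from an estimate to the end of its 95% interval was 0.90 over all probe sets.

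**Figure D4:**
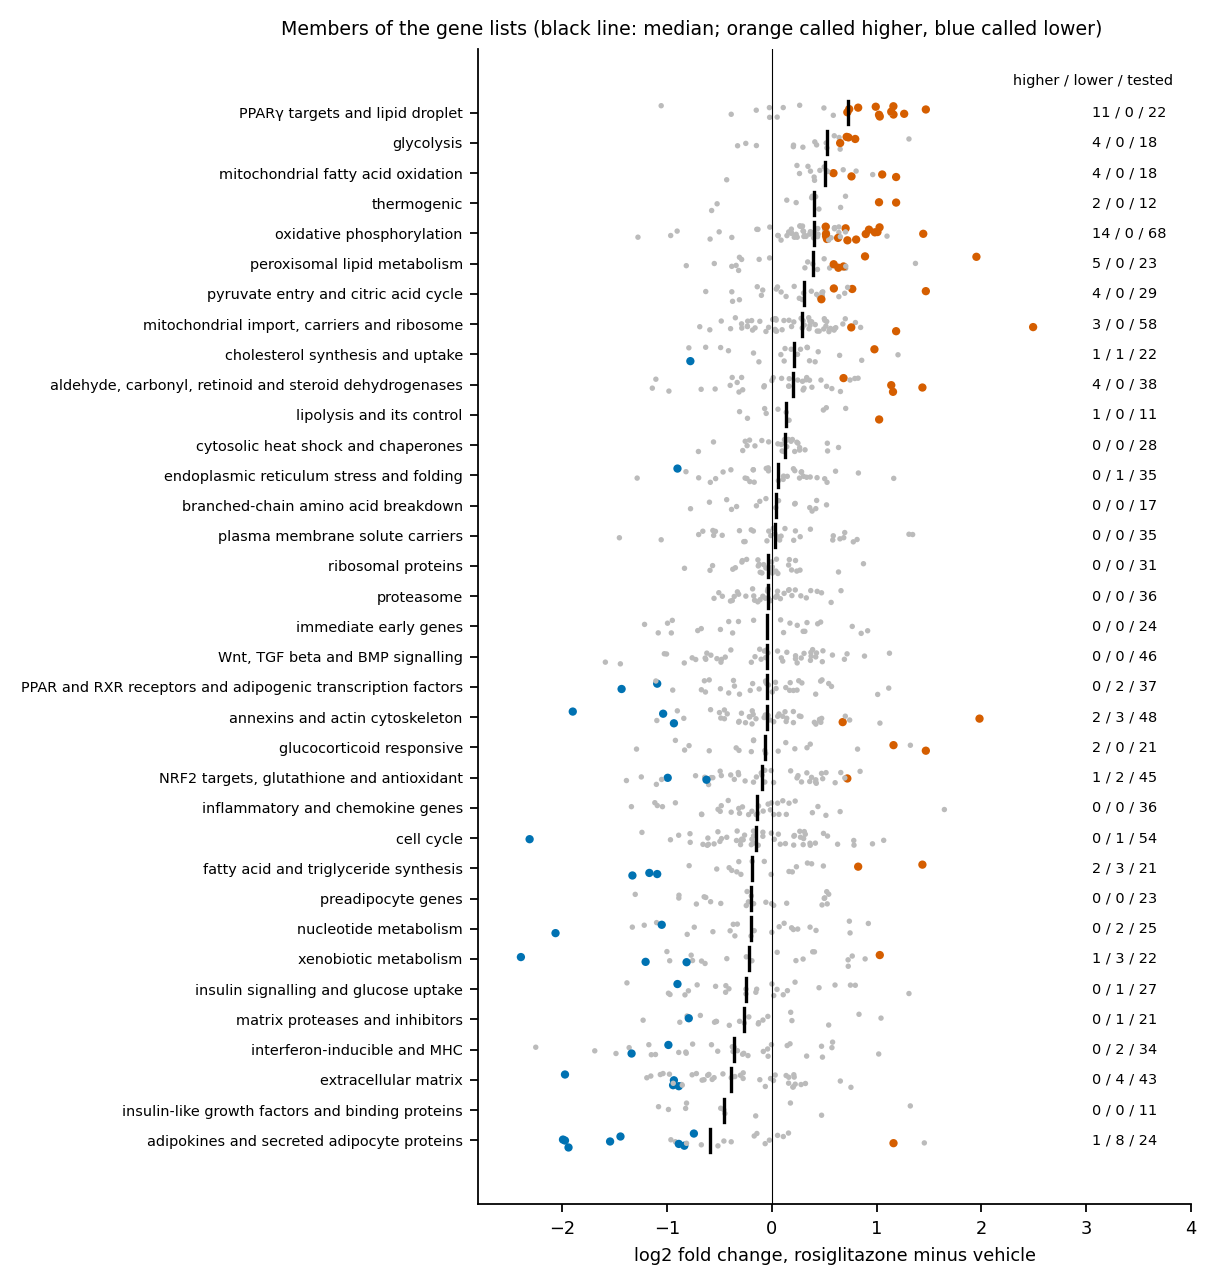
Log2 fold changes of the tested members of 35 gene lists (points), with the median as a black line; orange points were called higher, blue lower and grey not called, and the numbers at the right count members called higher, called lower and tested. PPARγ targets and lipid droplet genes have the highest median (0.73) and secreted adipocyte proteins the lowest (-0.59), and a gene in several lists appears in each.

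The lists that follow held no called gene, where 1.61% of all 7962 tested genes were called. Over all 11739 tested probe sets 1234 had an unadjusted p under 0.05 in limma. Of 36 inflammatory and chemokine genes 0 were called by limma (5 had an unadjusted p under 0.05, 2 higher and 3 lower). Their median was -0.14, and 24 of the 36 lay below 0. The smallest p were those of Ccl9 at -1.12 ± 0.36 (adjusted p = 0.208) and Cxcl1 at 1.65 ± 0.68 (adjusted p = 0.370). Ribosomal proteins (0 of 31, median -0.03; 4 with an unadjusted p under 0.05), the proteasome (0 of 36, median -0.04; 2) and cytosolic chaperones (0 of 28, median 0.12; 0) had medians close to that of all genes. The same was true of 17 genes of branched-chain amino acid breakdown (0 called, median 0.04; 5) and 35 solute carriers of the plasma membrane (0 called, median 0.03; 6). Of 24 immediate early genes 0 were called (3 with an unadjusted p under 0.05), and of 23 preadipocyte genes 0 (4, all lower; median -0.20). The medians of the ribosomal, proteasome, branched-chain, solute carrier and immediate early lists changed sign in 3 to 7 of the 25 alternatives and leave-outs tried.

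A second measurement within the same arrays came from genes with several probe sets. Of the 128 called genes, 34 had 42 other tested probe sets, each dimmer over the 11 arrays than the representing one. Of the 42, 30 had the same sign (71.4%), 11 the opposite one and 1, of Ndufb7, whose signals lay under the floor, a difference of 0. Over all genes with several probe sets 53.1% of the 2299 other probe sets had the same sign as the representing one. The called genes were chosen for their differences and most of the other genes were not, so these shares cannot be compared on equal terms. Of the 42, 4 were called in the same direction (for Acaa1b, Angptl4, Nectin2 and Tapbp) and 0 in the opposite one. Some of the rest were near the floor, such as that of Ndufb10 with mean signals of 47.2 in vehicle and 94.3 in rosiglitazone. Probe sets whose names end in f_at or s_at, by which the maker marks probes that match several transcripts, represent, among others, Pparg, Uqcrb, Ndufa5, Scp2, Angptl4, Gstm1 and Ly6e.

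The smaller set gave a check on arrays that the first did not use. Fitted to set 1 alone, 19 probe sets were called (0.162%), 11 higher and 8 lower. In the single pair of set 2, all 19 had the same sign, 14 of them by more than 2-fold, while 54.9% of the 9656 tested probe sets with a difference other than 0 in both sets had the same sign. Those higher in set 1 differed by 0.74 to 2.11 in set 2 (median 1.60), and those lower by -2.14 to -0.94 (median -1.40). Among them were Chchd10, Anxa2, Acaa1b, Cidec, Angptl4, Reep6, Atp5o, Gsn, Itih4, Cp, Pdcd4, S100a6 and Thrsp. Across all tested probe sets the differences of both sets had a correlation of 0.10; the probe sets share their arrays and are mostly dim. A test of whether the effect differed between the sets called 0 probe sets with limma (437, or 3.72%, had an unadjusted p under 0.05). Of the 159 called probe sets 7 were among the 437, including Hsd17b12, Pck1 (1.59 in set 1 and 0.60 in set 2), Pmm1, Ndufb6, Ndufb7 and Pdcd4.

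**Figure D5:**
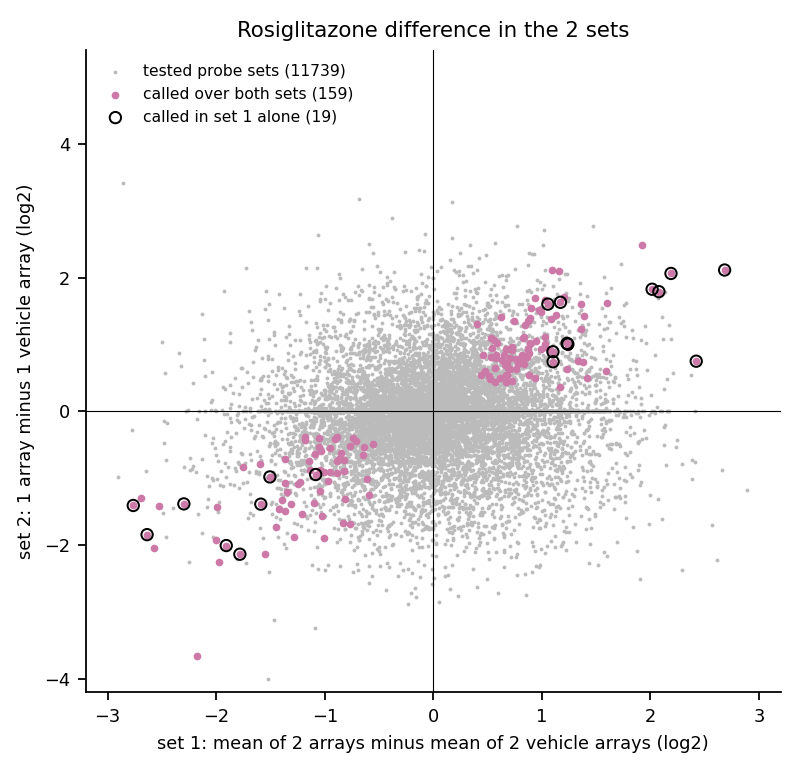
Log2 difference between rosiglitazone and vehicle in set 2 (1 array each, vertical) against set 1 (2 arrays each, horizontal) for 11739 tested probe sets; pink points were called over both sets (159) and ringed points in set 1 alone (19). All 19 ringed points have the same sign in both sets; the pink points lie in the same quadrants because both sets entered their choice.

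Values of the other drugs for some of these genes stand beside those of rosiglitazone without comparison, since the doses differ (20 µM against 1 µM) and the same vehicle arrays enter each difference. Log2 fold changes over vehicle for rosiglitazone, pioglitazone and troglitazone were -1.43, -1.93 and -1.89 for Pparg, 1.16, 1.43 and 1.07 for Cidec and 1.98, 1.94 and 1.92 for Anxa2. For Chchd10 they were 2.49, 2.63 and 3.17, and for Acaa1b 1.95, 2.29 and 1.96. Fasn stood at -1.17, -1.11 and -1.64 and Hp at -1.54, -1.72 and -2.17. For Pck1 the values were 1.26, 2.07 and 0.11, and for Trib3 -0.90, -0.09 and 0.52. Cidea was at 1.02, 0.65 and 1.13, and Tapbp at -0.99, -0.53 and -0.63. Differences between the drugs were not tested.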

How the data were processed

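The authors deposited 1 signal for each of 12488 probe sets on 11 one-colour arrays. The authors scaled these deposited intensities, which are linear, to a common mean after trimming 2% at each end, as the values show. The software that made them is not given in the sources used here. For 66 control probe sets no test was made. The signals were raised to the pooled 25th percentile (73.7) and their log2 taken; probe sets above it on at least 2 arrays were fitted with limma 3.58.1 (R 4.3.3) on all 11 arrays, with group means, a set term and an intensity trend, and Benjamini-Hochberg adjustment over 11739. Figures were drawn with matplotlib 3.10.9. Probe sets were named from the platform annotation (10833 with 1 gene, 396 with several, 1193 with none; 10817 matched by gene ID). Every called gene could be named; detail went to those that kept their call, the largest changes and list members, and to the 2 smallest p of lists without a call where described. The gene lists and the comparison were chosen with earlier results of these data known. Tested on simulated data, the fit recovered 18 of 100 changes of 1 log2 unit and 63 of 100 of 2 units, and called 6 unchanged probe sets. The simulation drew independent normal noise with the spread that the fit had estimated, and changed probe sets picked at random. It applied no floor and held no outlying array, so these counts do not measure the fit on the real arrays. Precision rests on 3 arrays a group.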

Additional observations from a re-analysis of the deposited data

How the results depend on the processing

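The 159 calls (92 higher, 67 lower) became 139 (69 higher, 70 lower, or 49.6% higher against 57.9%) under quantile normalisation, 117 under median centring, 156 and 177 with the floor at the 10th or 50th percentile, 168 with an added constant and 215 over probe sets above the floor on all 6 arrays. They were 99 (52 higher, 47 lower) without the filter on dim probe sets, 40 (17 and 23) without the set term, 6 (4 and 2) without the intensity trend, 18 (9 and 9) in a fit of the 6 arrays, 19 (11 and 8) in set 1 and 58 (34 and 24) without rosiglitazone replicate 2 and pioglitazone replicate 2. The latter had the highest beta-actin 3′/5′ ratio of the 11 arrays (4.86) and also their highest median correlation with the others (0.896). The cause of these shifts was not tested, beyond the fewer arrays of the last 3. Leaving out each array gave 74 to 158 calls, 35 to 89 higher and 32 to 69 lower. No called probe set turned its sign under any of these alternatives. The test between sets called 21 probe sets without the filter on dim probe sets and 0 otherwise, also with each of the 8 set 1 arrays left out, an alternative chosen after seeing the data. Arrays with the same replicate number deviated together only weakly (correlations of 0.066, 0.095 and 0.298 for replicates 1, 2 and 4). For all 3 numbers these deviations include the difference between the sets, which arrays of the same number share. Within set 1, replicate 1 minus replicate 2 had a correlation of 0.0044 between vehicle and rosiglitazone. The probe sets are mostly dim, so these correlations cannot show whether samples of the same number came from a shared culture. With the replicate block in place of the set term 162 probe sets were called (95 higher, 67 lower), 152 of them among the 159; in the fit of the 6 arrays with the replicate block it was 0 (0 higher, 0 lower), with 906 at an unadjusted p under 0.05. Dim signals limit what could be seen, since 13.7% to 28.3% of the probe sets lay under the floor.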

Other observations

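Among the 159 calls, 25 probe sets have no single gene in the annotation and are given by their identifiers. Of these, 9 kept the call whichever array was left out. The probe set 97525_at rose from 338, 376 and 618 to 1831, 1439 and 2581 (2.15 ± 0.20, adjusted p = 4e-05), and 160568_at from 7089.6, 7398 and 7755 to 15492, 17163 and 24016 (1.32 ± 0.14, adjusted p = 0.000116). The probe set 94507_at rose as well (1.24 ± 0.18, adjusted p = 0.00205). In the other direction, 97317_at fell from 11585, 11240.2 and 10743 to 1876, 1796 and 2995 (-2.37 ± 0.16, adjusted p = 1.72e-06), which is the second smallest p of the comparison in limma. The probe sets 94449_at (-1.52 ± 0.18, adjusted p = 0.000355) and 103033_at (-1.19 ± 0.15, adjusted p = 0.000757) also fell. The signals of 97525_at, 160568_at and 97317_at did not overlap between the groups. The probe set 98472_at fell from 388, 285 and 929 to 29.6, 36.4 and 69.3. All 3 rosiglitazone signals were under the floor of 73.7, so its fall of at least 6.35-fold (adjusted p = 0.0216 in limma) is a bound set by the floor, and the call ended when any 1 of 5 arrays was left out.

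Of the 128 called genes, 49 belonged to no list. Among those with smaller changes, Cavin1 and Cavin2 encode coat proteins of caveolae, the small pits of the adipocyte surface. Cavin1 was called at 0.68 ± 0.14, adjusted p = 0.0256, and its call ended without any of 6 of the 11 arrays (adjusted p up to 0.197, without rosiglitazone replicate 4). Cavin2 was called at 0.88 ± 0.20, adjusted p = 0.047, and its call ended without any of 9 of the 11 arrays (adjusted p up to 0.245, without vehicle replicate 2). Lonp1, a protease of the mitochondrial matrix, was called at 0.77 ± 0.15, adjusted p = 0.0164, and its call ended without rosiglitazone replicate 2 or 4 or vehicle replicate 2 or 4 (adjusted p up to 0.116, without vehicle replicate 2). Mrap, the accessory protein of the melanocortin receptor for ACTH, was called at 0.68 ± 0.13, adjusted p = 0.0194, and its call ended without rosiglitazone replicate 2 or 4 or vehicle replicate 1, 2 or 4 (adjusted p up to 0.133, without rosiglitazone replicate 4). Pim3, a serine and threonine kinase, was called at 0.85 ± 0.15, adjusted p = 0.00983, and its call ended without rosiglitazone replicate 1, 2 or 4 or vehicle replicate 1 or 4 (adjusted p up to 0.078, without vehicle replicate 1). Their joint occurrence among the calls was not tested. Cbfb and Polr2a were called only through a probe set that was not the brightest of their gene.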
